A study of Mus musculus with 4 samples.

Results

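The Hox genes encode homeodomain transcription factors and lie in 4 clusters, Hoxa, Hoxb, Hoxc and Hoxd. The peaks of Foxr2, a forkhead transcription factor, were examined here in and around these clusters in a mouse brain tumor line. The genes were taken from GENCODE release M21 as all protein-coding genes whose symbol is Hoxa, Hoxb, Hoxc or Hoxd followed by a number. There were 39 of them among 21951 protein-coding genes, 11 in Hoxa, 10 in Hoxb, 9 in Hoxc and 9 in Hoxd. A cluster was taken from its first to its last gene with 10 kb added on either side, and every peak touching it was counted, before and after a minimum fold of 6.

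Foxr2 was located by CUT&RUN, in which an antibody tethers a nuclease to a protein and the DNA cut free beside it is sequenced. The antibody was directed against V5, a short peptide tag that the FOXR2 vector carried. The Foxr2 p53LOF group held 2 replicates of a neurosphere line grown from a brain tumor, which had been made by in utero electroporation (IUE) of the ganglionic eminences of C57BL/6J embryos with a piggyBac FOXR2-V5 vector under the CAG promoter and a CRISPR guide against Trp53. The V5 control group held 2 replicates from a separate IUE model of the same strain, labelled H3.3G34R, which lacks the V5 tag. Each sample held 500000 cells fixed in 0.1% formaldehyde for 1 minute. All Foxr2 p53LOF values therefore come from a line with driven, tagged Foxr2, the replicates share that line, and the groups differ in genotype as well as in the tag. The files hold peaks and no expression, so neither line could be checked against markers of its cell type, and nothing below says whether a Hox gene was expressed.

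The order of the Hox genes along a chromosome follows the order in which they act along the body axis, from paralogous group 1, nearest the head, to group 13, at the tail. Genes that share a group number across clusters are paralogs, copies left by duplications of an ancestral cluster. In the embryonic nervous system they pattern the hindbrain and spinal cord, and in the forebrain they are normally kept silent under Polycomb-group repression. Retinoic acid, Cdx factors and Trithorax-group proteins such as Kmt2a are known activators of the clusters.

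The Foxr2 p53LOF lists held 31909 peaks in replicate 1 and 38580 in replicate 2, and the control lists 308 and 124. Each peak carries a fold, the fragments at its summit over the background of its own library, both raised by 1. The smallest listed peak had a fold of 3.09, or 6 fragments, in replicate 1 and of 2.96, or 8 fragments, in replicate 2. A fold above 6 needed 13 and 18 fragments. A stretch without a peak is thus one where the deposited list shows none above its lower limit, not one shown to be free of Foxr2. The 95% intervals given for folds are exact Poisson intervals and cover counting error only. No p-value is given between groups, because an exact permutation test of 2 against 2 libraries cannot go below 0.333.

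The peaks lay almost entirely in Hoxa. The Hoxa cluster (chr6:52145590-52270880 in GRCm38, the same build as mm10, 125 kb) held 23 peaks in Foxr2 p53LOF replicate 1 and 30 in replicate 2, a mean of 26.5 ± 4.95 (SD, n = 2), and 0 in either V5 control. The Hoxb cluster (chr11:96184316-96378256, 194 kb) and the Hoxc cluster (chr15:102911103-103046852, 136 kb) held 0 peaks in all 4 libraries. The Hoxd cluster (chr2:74658310-74775142, 117 kb) held 0 in replicate 1, 1 in replicate 2 and 0 in the controls. With a minimum fold of 6, Hoxa kept 5 peaks in replicate 1 and 4 in replicate 2, and the other clusters had 0 in every library. The nearest control peak to any cluster lay 232846 bp from Hoxc.

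**Figure D1:**
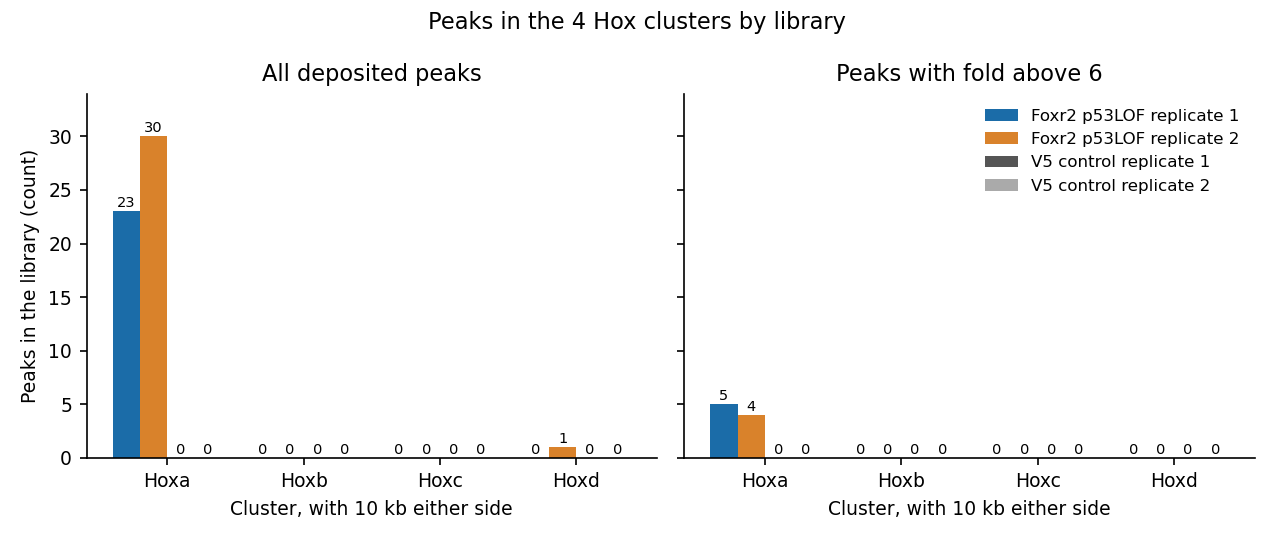
Number of peaks in each Hox cluster (bars, 1 per library, count above each bar) for all deposited peaks on the left and for peaks with a fold above 6 on the right. The Hoxa bars of 23 and 30 fall to 5 and 4, Hoxd has 1 peak in replicate 2 before the minimum, and all other bars are at 0.

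The DNA under a pair of the stronger Hoxa peaks is shown first, in GRCm38, with no capitals because none of the 4 motifs searched below occurs in these windows. The first window lies at the replicate 1 summit upstream of Hoxa4 (chr6:52192072-52192172, plus strand), and the other at the replicate 2 summit in an intron of Hoxa3 (chr6:52173015-52173115, plus strand). They had 64.4 and 54.5% GC.
Hoxa4 upstream summit: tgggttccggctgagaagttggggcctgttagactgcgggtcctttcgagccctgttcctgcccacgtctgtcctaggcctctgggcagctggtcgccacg
Hoxa3 intron summit: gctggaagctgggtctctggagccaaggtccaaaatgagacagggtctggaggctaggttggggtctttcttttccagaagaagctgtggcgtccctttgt

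RefSeq promoter windows, 250 bases before to 50 after a start in GRCm38.p6, were found for 22 of the 39 Hox genes, in 24 windows, 10 of Hoxa, 10 of Hoxd, 3 of Hoxb and 1 of Hoxc. Of the 10 Hoxa windows 3 lay under a peak in both replicates, 1 in replicate 2 alone and 6 in neither, and in the other clusters only that of Hoxd3 lay under one, in replicate 2. Those below were picked to show windows with and without a peak and are not a balanced sample of a cluster. Hoxa5 (chr6:52204538-52204837, minus strand) and Hoxa2 (chr6:52164782-52165081, minus strand) lay under a peak in both replicates and Hoxd3 (chr2:74711743-74712042, plus strand) in replicate 2 alone. Hoxb4 (chr11:96318017-96318316, plus strand), Hoxc4 (chr15:103034145-103034444, plus strand) and an internal start of Hoxd11 (chr2:74682073-74682372, plus strand) lay under no peak. Capitals mark motif letters, given below.
Hoxa5: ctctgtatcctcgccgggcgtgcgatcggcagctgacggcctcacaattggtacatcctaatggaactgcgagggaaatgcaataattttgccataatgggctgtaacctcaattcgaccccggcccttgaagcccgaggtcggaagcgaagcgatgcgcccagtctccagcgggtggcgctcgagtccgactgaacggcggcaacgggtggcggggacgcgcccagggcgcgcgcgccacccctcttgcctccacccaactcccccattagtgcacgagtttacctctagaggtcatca
Hoxa2: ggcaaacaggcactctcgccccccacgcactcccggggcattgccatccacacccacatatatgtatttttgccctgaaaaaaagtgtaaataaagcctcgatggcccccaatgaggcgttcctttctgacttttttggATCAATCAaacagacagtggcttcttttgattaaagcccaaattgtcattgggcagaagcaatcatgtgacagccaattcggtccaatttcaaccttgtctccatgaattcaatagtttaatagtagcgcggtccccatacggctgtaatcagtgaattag
Hoxd3: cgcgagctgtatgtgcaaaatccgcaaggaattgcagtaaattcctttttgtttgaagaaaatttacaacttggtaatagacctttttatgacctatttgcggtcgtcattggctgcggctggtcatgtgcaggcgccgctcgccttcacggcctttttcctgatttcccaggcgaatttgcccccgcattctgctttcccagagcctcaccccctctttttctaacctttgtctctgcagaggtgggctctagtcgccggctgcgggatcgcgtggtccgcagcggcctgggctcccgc
Hoxb4: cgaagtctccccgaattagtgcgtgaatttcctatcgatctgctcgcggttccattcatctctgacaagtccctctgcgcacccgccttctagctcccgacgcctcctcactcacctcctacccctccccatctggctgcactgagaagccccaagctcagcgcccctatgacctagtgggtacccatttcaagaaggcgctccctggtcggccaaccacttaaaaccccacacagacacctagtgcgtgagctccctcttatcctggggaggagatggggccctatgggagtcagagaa
Hoxc4: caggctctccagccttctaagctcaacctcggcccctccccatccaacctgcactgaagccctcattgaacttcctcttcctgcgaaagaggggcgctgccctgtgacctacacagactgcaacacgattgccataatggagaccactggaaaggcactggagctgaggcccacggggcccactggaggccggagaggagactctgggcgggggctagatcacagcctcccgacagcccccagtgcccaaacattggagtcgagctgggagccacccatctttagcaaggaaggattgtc
Hoxd11: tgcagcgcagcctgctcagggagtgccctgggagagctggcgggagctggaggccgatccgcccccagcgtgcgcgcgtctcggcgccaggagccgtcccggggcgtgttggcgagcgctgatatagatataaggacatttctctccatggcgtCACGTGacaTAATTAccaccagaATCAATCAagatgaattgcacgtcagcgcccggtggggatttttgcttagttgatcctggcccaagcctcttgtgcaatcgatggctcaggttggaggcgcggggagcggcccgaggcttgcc

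The density of peaks in Hoxa was far above that of its surroundings. Hoxa held 18.4 peaks per 100 kb in replicate 1 and 23.9 in replicate 2. Over the genome the lists held 1.17 and 1.41 peaks per 100 kb, over chromosome 6 they held 1.53 and 1.88, and in the 500 kb on either side of Hoxa 3.50 and 3.70. Peaks covered 18.4% of the bases of Hoxa in replicate 1 and 29.3% in replicate 2, against 3.16% and 4.04% of the flanks and 1.49% and 1.93% of the genome. The genome was also cut into 42012 overlapping windows of the length of Hoxa, of which 44% held no peak in either replicate. None of them held as many peaks as Hoxa in both replicates. Outside Hoxa 3 windows held at least 23 in replicate 1 and 0 at least 30 in replicate 2. These windows started at fixed steps, whereas the Hoxa interval was fitted to its own genes, so the comparison favours Hoxa. The windows overlapping Hoxa did not reach its counts either. Ranked by the lower of the replicate counts, the densest window elsewhere, over Sox10 and Polr2f on chromosome 15, had 22 and 22 peaks, and the next, over histone and butyrophilin genes on chromosome 13, had 21 and 23.

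The other clusters lay in stretches without peaks that reached past their ends. The stretch around Hoxb ran for 690 kb in replicate 1 and 590 kb in replicate 2, while the 500 kb on either side of the cluster held 25 and 29 peaks. Around Hoxc it ran for 291 kb and 338 kb, with 49 and 70 peaks in the flanks. Around Hoxd it ran for 346 kb in replicate 1, and the flanks held 9 and 7 peaks. Hoxb and Hoxc were thus without peaks, with flanks denser than the genome, whereas the flanks of Hoxd, at 0.90 and 0.70 peaks per 100 kb, were sparser. The Hoxb flanks, at 2.5 and 2.9, were close to the level of chromosome 11, 2.41 and 3.01. The Hoxc flanks, at 4.9 and 7, were above that of chromosome 15, 1.75 and 2.18. The nearest peak after Hoxb was 388480 bp and 388563 bp away, and the nearest before it 107317 bp and 7603 bp. Stretches without a peak were common in these lists: 35.7% of genome windows of the length of Hoxb had none in either replicate, as did 42.5% of those of the length of Hoxc. Among windows with at least as many gene starts as the cluster, the share without a peak was 20.4% for Hoxb (98 of 481 windows), 14.3% for Hoxc (49 of 343) and 11.6% for Hoxd (26 of 224).

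**Figure D2:**
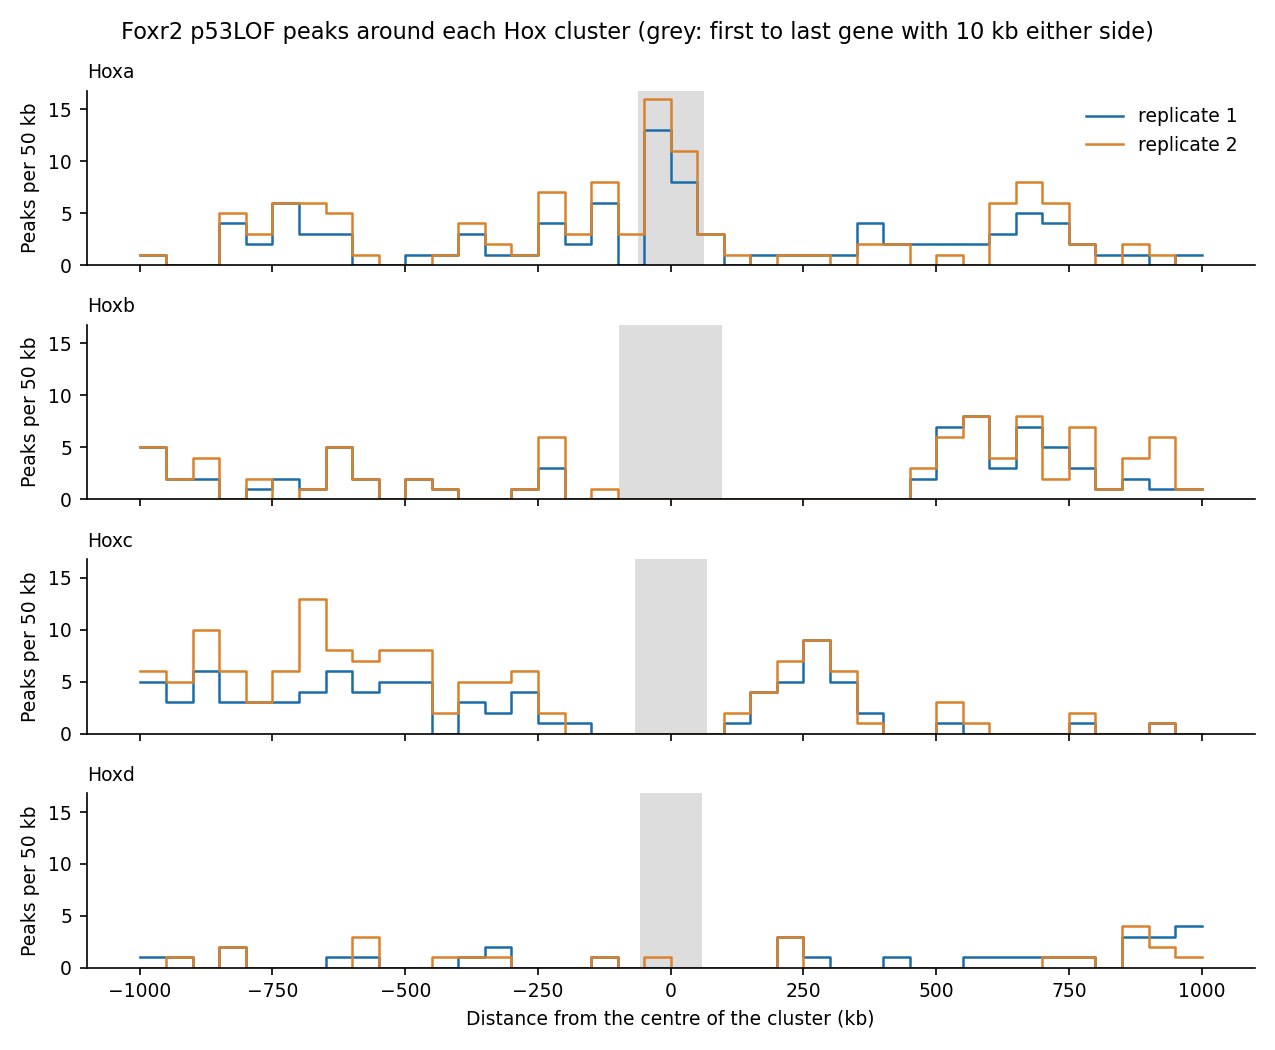
Peak summits per 50 kb (lines, blue for Foxr2 p53LOF replicate 1 and orange for replicate 2) within 1 Mb of the centre of each cluster, which is shaded. The highest bins of Hoxa, 13 in replicate 1 and 16 in replicate 2, lie inside the cluster, while Hoxb and Hoxc are at 0 across theirs.

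A promoter was taken as the 1 kb on either side of each start of a protein-coding transcript. In replicate 1, 8 of the 39 Hox promoters had a peak of any fold, where 53.4% of 21866 protein-coding genes did, and in replicate 2, 11 had one, where 54.4% did. In both replicates 8 Hox genes (20.5%) had a promoter peak, against a background of 51.5%, so as a family they fell below the genome. They were all in Hoxa, among them Hoxa2, Hoxa3, Hoxa4, Hoxa5, Hoxa7, Hoxa9 and Hoxa13. Within Hoxa alone the share was 72.7%, near the 70% of protein-coding genes in the Hox range of GC and CpG, given below. In the controls 0 Hox promoters had a peak, where 0.183% and 0.146% of all genes did.

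**Figure D3:**
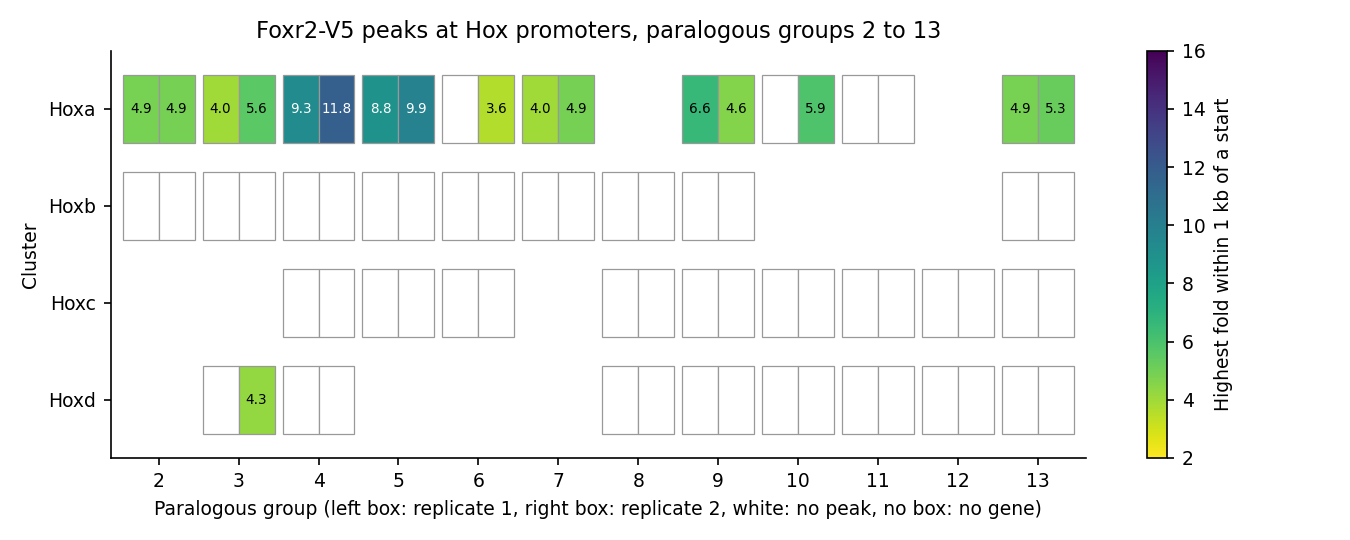
Highest fold of a peak touching the 1 kb either side of a start, by cluster (rows) for the Hox genes of paralogous groups 2 to 13 (columns), with replicate 1 in the left box and replicate 2 in the right. All filled boxes but the right box of Hoxd3, at 4.3, are in the Hoxa row, and the darkest are the right boxes of Hoxa4, at 11.8, and of Hoxa5, at 9.9.

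The paralogous groups were split in the same way. In groups 2, 3, 4, 5, 7, 9 and 13 the Hoxa gene had a promoter peak in both replicates and its paralogs in Hoxb, Hoxc and Hoxd had none in both. Group 4, with a gene in every cluster, shows it most simply: Hoxa4 had folds of 9.28 and 11.8, while Hoxb4, Hoxc4 and Hoxd4 had no promoter peak in any library. In groups 6, 8, 10, 11 and 12, no gene had one in both replicates. Group 8 and group 12 have no Hoxa member.

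By the peak filter of the methods, a peak is kept with a fold above 6, a −log10 q above 6, a length under 10000 bp and less than 10 bp of overlap with any control peak, and a stretch kept in both replicates is called a reproducible site here. The methods then also keep only stretches under snATAC-seq peaks of the mouse model, a step not used here, so these sites are not the final set of the study. At the promoter, 3 Hox genes (7.69%) had such a site, where 39.3% of all genes did. All were in Hoxa, Hoxa4 and Hoxa5 among them. Folds above 6 in both replicates, with no other filter, gave 3 Hox genes against a background of 39.8%. In the gene body or 10 kb either side, 7 Hox genes had a site (17.9%, background 50%), Hoxa2 to Hoxa7 among them. All 11 Hoxa genes and no other Hox gene had a peak of any fold there in both replicates (28.2%, background 63.8%). Gene regions of 10 kb overlap in so compact a cluster, so these 7 genes share 4 sites.

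Hoxa4 and Hoxa5 had reproducible sites at their promoters. Hoxa4, a patterning gene of the lower hindbrain and neck (chr6:52189671-52191753), had promoter folds of 9.28 (5.84 to 14.1) and 11.8 (8.34 to 16.3), with summits 369 bp and 291 bp upstream of its start. Those summits also fall in an intron of the longest Hoxa3 transcripts. Hoxa5, needed for the lung and the cervical skeleton (chr6:52201754-52204587), had 8.84 (5.50 to 13.6) and 9.86 (6.71 to 14.01), with summits 145 bp and 179 bp downstream of its start, in its UTR. The summits of the replicates lay 34 bp apart at Hoxa5 and 78 bp apart at Hoxa4. Their intervals overlap in each replicate, so the order of these genes is not resolved at this depth.

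A further reproducible site was inside Hoxa3, which patterns the pharyngeal arches and the lower hindbrain. It ran from 52172134 to 52173484, and its folds were 7.51 and 7.23. In replicate 1 the summit, at 52172449, was in a coding exon. In replicate 2 it was at 52173065, in an intron beside the start of the antisense transcript Gm15050, under a peak of 5441 bp. At the annotated starts of Hoxa3, which lie upstream of this site, the highest folds were 3.98 and 5.59, with summits 109 bp apart. Hoxa3 has transcripts that span Hoxa4, Hoxa5 and Hoxa6 (chr6:52169062-52213336), so a summit in its introns can belong to another gene's promoter.

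The other Hoxa promoters had peaks of low fold. Hoxa2, which sets the identity of the second pharyngeal arch, had 4.86 and 4.93, with summits 11 bp apart. Hoxa13, a gene of the distal limb and hindgut, had 4.86 and 5.26, with summits 407 bp apart. Hoxa7, a trunk patterning gene with 4 annotated starts, had 3.98 and 4.93. Both replicates had peaks at its first start and at a start inside the gene. In replicate 1 both peaks had a fold of 3.98. The peak taken there, inside the gene, had its summit 4030 bp from that of replicate 2. These genes stood near or below the middle of their lists, between the 16.4th and the 50.3rd percentile.

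Hoxa9 passed the minimum fold in replicate 1 alone, and Hoxa10 came close to it in replicate 2 alone. Hoxa9, active in trunk patterning and in blood stem cells, had 6.63 in replicate 1 and 4.60 in replicate 2, although its summits were 7 bp apart. Those summits lay in a coding exon, 105 bp and 112 bp downstream of a start inside the gene. The RefSeq window at its first protein-coding start lay under no peak. Hoxa10, which acts in the uterus and the lumbar skeleton, had no promoter peak in replicate 1, where a peak of 4.86 lay in its intron, and 5.91 in replicate 2. Hoxa6 had none in replicate 1 and 3.61 in replicate 2. Hoxa11, a gene of the forearm and kidney, had no promoter peak in either replicate, although replicate 2 had a peak of 3.94 in its coding exon. The interval of Hoxa9 in replicate 1, 3.82 to 10.8, contains both the minimum and the replicate 2 value.

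**Figure D4:**
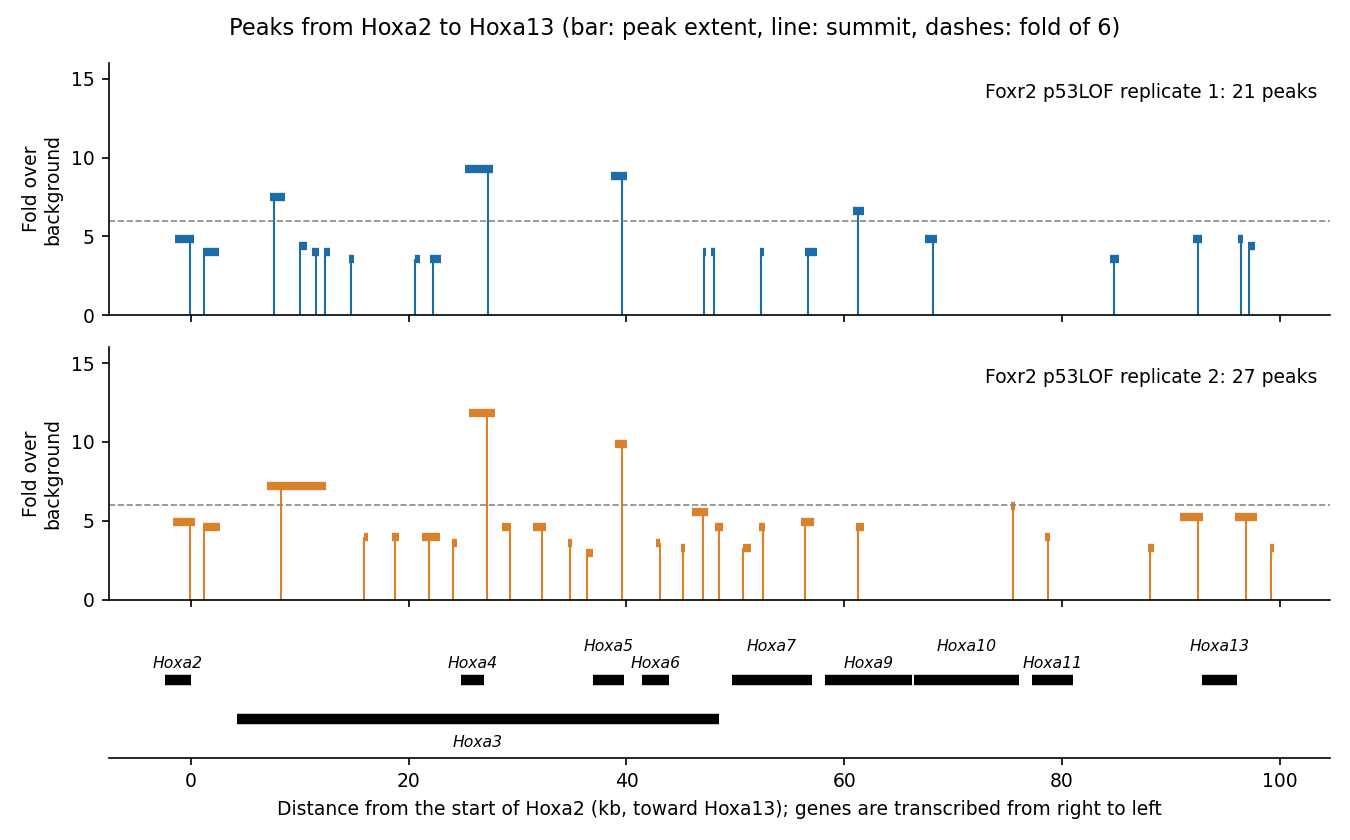
Folds of the peaks from Hoxa2 to Hoxa13 against the distance from the Hoxa2 start in kb, with replicate 1 above and replicate 2 below (horizontal bars for the extent of a peak, vertical lines for its summit, dashes for the fold of 6, black bars for genes). Peaks occur along the whole stretch, and those above the dashes lie in Hoxa3, at Hoxa4 and at Hoxa5 in both replicates and at Hoxa9 in replicate 1 alone.

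Peaks in Hoxa were many, and few of them had a high fold. Their median fold was 4.42 in replicate 1 and 4.60 in replicate 2, against 5.30 and 4.93 over all peaks and 4.86 and 4.60 over those of chromosome 6, so that in replicate 2 Hoxa matched its chromosome. Folds above 6 made up 21.7% and 13.3% of Hoxa peaks, where they made up 42.5% and 39% of the whole lists. Of the peaks in Hoxa, 19 of 23 in replicate 1 (82.6%) touched a peak of replicate 2, and 15 of 30 in replicate 2 (50%) touched one of replicate 1. Over all peaks the shares were 75.4% and 59.6%. Before the filter, 20 stretches of Hoxa were covered in both replicates, and 4 remained as reproducible sites, of 11947 in the genome. By the lower of its folds, the site in Hoxa3 stood at the 25th percentile of all reproducible sites, that at Hoxa5 at the 46.4th and that at Hoxa4 at the 51.9th.

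The peaks of highest fold lay toward the head end of the cluster, although the median folds of its ends were close. The stretch up to and including Hoxa5, of 60 kb, had 13 peaks in replicate 1 and 16 in replicate 2, and that from Hoxa6 to Hoxa13, of 65.3 kb, had 10 and 14. Their median folds were 4.42 and 4.60 in the former and 4.20 and 4.60 in the latter. Bases covered were 26.4% and 40.8% in the former and 11.1% and 18.7% in the latter. Peaks above a fold of 6 numbered 4 and 4 in the former and 1 and 0 in the latter. The boundary was drawn with the folds in view, so these values are a description.

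Many Hoxa peaks lay away from the starts of Hox genes. The summit was within 1 kb of such a start in 9 of 23 peaks in replicate 1 and in 12 of 30 in replicate 2. By position, 3 and 3 summits were in coding exons, 2 and 5 in UTRs, 11 and 12 in introns, 0 and 3 in exons of noncoding transcripts and 7 and 7 outside Hox genes. Because Hoxa3 is annotated over much of the cluster, most of the intronic summits are introns of Hoxa3. Summits inside annotated noncoding genes numbered 14 and 19.

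Noncoding genes with peaks at their starts were also found in Hoxa alone. Leaving out entries typed only as miscellaneous RNA or processed pseudogene, Hoxa holds 9 annotated noncoding genes, of which 6 had a peak within 1 kb of their start in both replicates, among them Hoxaas2, Gm15050, Hoxaas3, 9530018H14Rik and Hottip. Over all 15214 annotated genes of these noncoding types, 16.7% had one. The Hoxa calls are not separate from each other or from those of the Hox promoters. The highest peaks at the Hoxaas2 start, of 4.86 and 4.93, are the Hoxa2 promoter peaks. In replicate 2 the Hottip peak is that of Hoxa13, and the same peak, of 7.23, is counted for Gm15050 and Hoxaas3. Gm15050, antisense to Hoxa3, had 7.51 and 7.23. Hottip, known for guiding Trithorax complexes to the posterior Hoxa genes, had 4.42 and 5.26. The noncoding genes of Hoxb (6), Hoxc (3, with Hotair) and Hoxd (9) had 0 starts with a peak in both. The microRNA genes of the clusters, Mir10a, Mir10b, Mir196a-1, Mir196a-2, Mir196b and Mir615, had no peak within 1 kb of their starts.

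The lone Hoxd peak lay at Hoxd3, a gene of the upper neck vertebrae. It ran from 74711873 to 74712292 in replicate 2, with a fold of 4.27 from 12 fragments, at the 31.6th percentile of its list. Its summit was 163 bp downstream of the Hoxd3 start (chr2:74711927-74748442), inside the antisense transcript Hoxd3os1. The annotated extent of Hoxd4 also begins under it, but the protein-coding starts of Hoxd4 do not lie within 1 kb. Replicate 1 had no peak in this cluster, so the call rests on 1 library.

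The sequence of the promoters was set beside the peaks. GC content in 1001 bp around the first start had a median of 58.4% in Hoxa, 54.7% in Hoxb, 55.5% in Hoxc and 60.1% in Hoxd, against 54.9% over all genes. Observed over expected CpG had medians of 0.689, 0.472, 0.651 and 0.726. Both medians were higher in Hoxd than in Hoxa, although no Hoxd promoter had a peak in both replicates. Over the 14309 protein-coding genes inside the range of GC and CpG that the Hox genes span, 70% had a promoter peak in both replicates. That share is above the 51.5% of all genes and near the 72.7% of Hoxa, while Hoxb, Hoxc and Hoxd had 0%.

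**Figure D5:**
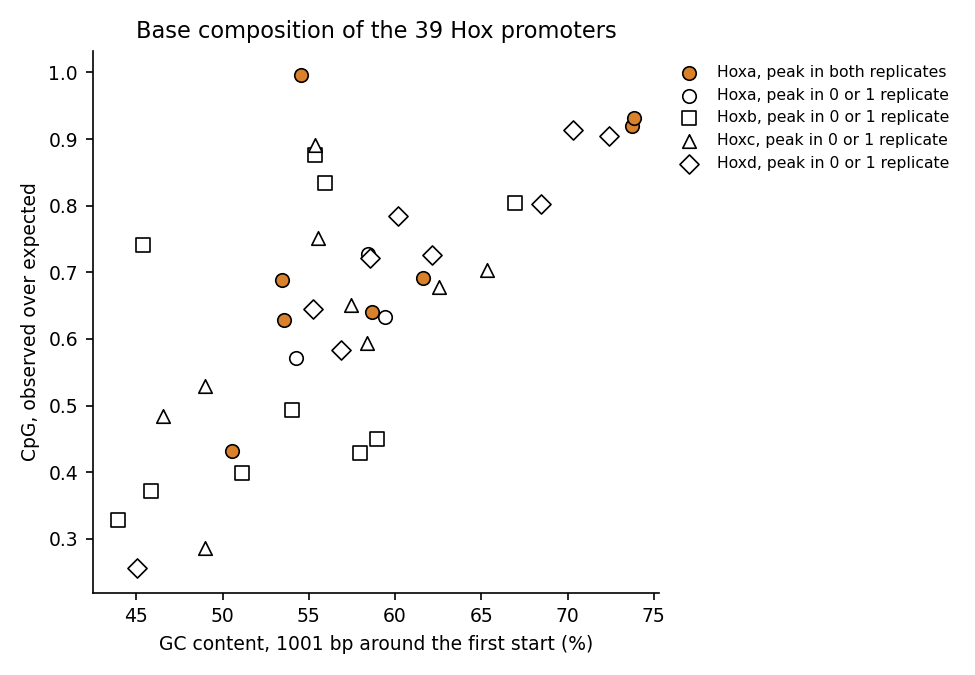
GC content (%) against observed over expected CpG in 1001 bp around the first start of each of the 39 Hox genes (symbols by cluster, filled where both Foxr2 p53LOF replicates had a promoter peak). The filled symbols are all Hoxa and run from 50.5 to 73.8% GC, and the open symbols, which reach lower, run from 44.0 to 72.4%.

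The letters of 4 motifs were counted on both strands, with no allowance for mismatches. CCGGAAG, the core of ETS-family sites, occurred in 0 of 24 Hox promoter windows and in 8.86% of 32851 windows of all genes. TAATTA, a homeodomain core, occurred in 2 windows (8.33%), both of Hoxd11, against 5.29%. TGATTNAT, a joint PBX and HOX site, occurred in 2 windows (8.33%), of Hoxa2 and Hoxd11, against 3.22%. CACGTG, the E-box, occurred in 5 windows (20.8%), all of Hoxd genes, against 7.15%. The Hoxa2 and Hoxd11 windows printed above carry TGATTNAT on the other strand. In 200 bp around the summits of Hoxa peaks CCGGAAG was found at 0 of 23 in replicate 1 and 0 of 30 in replicate 2, where 1.75% and 1.57% of chromosome 6 summits held it. The other motifs were at 1 (TAATTA), 2 (TGATTNAT) and 1 (CACGTG) of the 23 summits of replicate 1, where 5.39, 2.58 and 3.37% of chromosome 6 summits held them, and at 0 of the 30 of replicate 2, where 4.88, 2.88 and 2.60% did.

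Genes that work with the Hox proteins were unlike the Hox genes themselves. The cofactors of Hox proteins, the TALE homeodomain genes of the Pbx, Meis and Pknox families, had a promoter peak in both replicates in 9 of 9 genes, against the background of 51.5%. A reproducible promoter site was found in 7 of the 9, where 39.3% of all genes had one. Pknox1 had folds of 12.8 and 23.0, and Meis1 had 10.2 and 17.7. The folds of Meis2, Pbx3, Pknox2 and Pbx4 ran from 6.19 to 16.1.

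Genes known to act on Hox expression were mostly called as well, with 18 of 22 having a promoter peak in both replicates and the same 18 a reproducible promoter site, where 51.5% and 39.3% of all genes did. Among Polycomb and Trithorax genes, Cbx8, a reader subunit, had folds of 23.9 and 26.3, Ezh2, the methyltransferase of H3K27, had 17.7 and 21.4, and Kmt2a had 7.95 and 14.8. Egr2, the hindbrain activator of Hoxa2 and Hoxb2, had 16.8 and 20.04. Of the retinoic acid receptors, Rara and Rarg had sites, with promoter folds of 15.02 and 23.0 at Rarg, whereas Rarb had a promoter peak, of 3.53, in replicate 1 alone and peaks elsewhere within 10 kb of its body in both. Of the enzymes of retinoic acid, Cyp26b1 had 9.72 and 11.8, and Cyp26a1, Cyp26c1 and Aldh1a2 had no promoter peak in either replicate.

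Few homeobox genes related to the clusters had a promoter peak. Of 9 genes, 1 had one in both replicates, where 51.5% of all genes did, and 8 had no promoter peak in either replicate: Evx1, Evx2, Mnx1, Cdx1, Cdx2, Cdx4, Gsx2 and Pdx1. Within 10 kb of the gene, peaks of both replicates were found at Gsx2 (6.19 and 5.91), Cdx2 (5.30 and 3.61) and Evx1 (3.09 and 3.94). Gsx1, a ventral forebrain gene, had a reproducible promoter site with folds of 6.19 and 8.21.

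The nearest protein-coding genes beyond the outermost Hox genes were mostly called. Of 24 genes, 3 beyond the outermost Hox gene at each end of each cluster, 18 had a promoter peak in both replicates. A reproducible promoter site was found at 16, where the shares of all genes were 51.5% and 39.3%. Beside Hoxa, Skap2 had 17.7 and 30.2, and beside Hoxc, the promoter shared by Cbx5 and Hnrnpa1 had 70.7 and 99.2, among the highest folds of both lists. Beside Hoxb, Cbx1 had 9.72 and 10.2 while its closer neighbour Skap1 had none. Evx1 and Evx2, which directly adjoin Hoxa and Hoxd, had no promoter peak. The start of Evx2 lies within the 10 kb added to Hoxd. The lack of calls in Hoxb and Hoxc ended within the set of 3 genes on either side.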

How the data were processed

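CUT&RUN against V5 was measured in 2 Foxr2 p53LOF and 2 V5 control libraries. The authors trimmed reads with Trimmomatic 0.39, aligned them to mm10 with BWA 0.7.17, removed duplicates with Picard 2.26.6 and called peaks in each library with MACS2 2.2.7.1. The deposited fold is a ratio computed by MACS2, the deposited −log10 p and q values come from the same caller, and the deposited score, a scaled −log10 q, was not otherwise used. Peak lists give no read totals, so precision comes from the fragments at a summit. These were recovered from the steps of the folds: 100% of folds up to 30 gave whole fragments within 0.02. The filter, sites (without the snATAC-seq step of the methods) and gene calls were computed in Python 3.11.15 with pandas 2.3.3 and numpy 2.4.6, and checked on simulated peaks. Replicates are separate samples of one line, so their spread may be technical. Hox genes, other gene lists, motifs and thresholds were chosen with earlier results of these data known. All 39 Hox genes enter the counts, and those with a promoter peak in either replicate are given their folds, except that some results for single genes are not reported here. Alternatives covered the minimum fold and q, control overlap, shared overlap, length limit, promoter window, gene region, cluster margin, fold scale and each replicate.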

Additional observations from a re-analysis of the deposited data

How the results depend on the processing

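Of the alternatives run, 37 stayed within 1.5 times the reported count, or within the replicate spread for shares and folds, and 13 moved beyond it. Peaks in the Hox clusters, 27 per Foxr2 p53LOF library, fell to 15 at a minimum fold of 4, to 4.5 at 6 and to 1.5 at 10. Genes with a promoter peak in both replicates fell from 8 to 3 at a minimum of 6 and to 1 at 10. Genes with a reproducible promoter site fell from 3 to 1 at a minimum fold of 10 and rose to 8 once both minimums were dropped, a setting tried only after seeing these counts. Genes with a site in the body or 10 kb either side went from 7 to 3 at a minimum of 10, to 4 with the gene body alone and to 11 with 50 kb. Bases of the clusters under peaks, 5.26%, fell to 1.91% at 6 and to 0.764% at 10. Fewer peaks pass a higher minimum by construction. Without either Foxr2 p53LOF replicate, the values ranged from 23 to 31 peaks, 8 to 11 promoter peaks, 3 to 4 promoter sites, 7 to 9 genes with a site, 4.03 to 6.49% covered, and 5.42 to 5.74 for the median of the promoter folds, 4.86 when the lower replicate counts, a range likewise added later. Without either control the promoter sites stayed at 3 and the genes with a site at 7; the other values use no control. No paired analysis was possible because the results are counts and folds from separate peak lists with no test. A gene without a peak may have had fewer fragments than the caller's limit.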
